A study of Mus musculus with 12 samples.

Results

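The T bases of the D arm of mouse tRNA were taken as the T rows numbered 13 to 22, counting from the 5′ end of each tRNA entry. They comprised 448 distinct bases in 181 of 213 distinct tRNAs, out of 14012 distinct bases of all kinds. Of these, 229 bases in 109 tRNAs and 42 anticodons were covered by at least 20 reads in every library and could be tested. The other 219 bases had a lowest coverage of 2 to 19 reads, and were described by number only. Row 13 held 54 of the 448 bases (25 tested), row 16 held 115 (54), row 17 held 19 (7), row 19 held 112 (66), row 20 held 97 (44), row 21 held 38 (23) and row 22 held 11 (8). Rows 14 and 18 held 1 base each, both tested, and row 15 held none.

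The libraries came from wild-type mouse hematopoietic stem and progenitor cells, labelled young or old, with no age given. Small RNA was demethylated with wild-type and mutant AlkB and put in BEU buffer with CMC, which marks pseudouridine, or in BEU buffer alone. Each of the 4 groups (young BEU, young CMC, old BEU, old CMC) had 3 libraries. Nothing in the labels says that the 3 libraries came from separate animals, so p-values measure the spread between libraries, which may be technical. The tables hold tRNA alone, and the cell type could not be checked against marker genes.

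Reverse transcriptase halts at a CMC-marked pseudouridine, and the halt is read as a stop. In the D arm, PUS7 is known to make pseudouridine at position 13 of several tRNAs, in the letters TNTAA or TNTAG with the modified base as the third. The D loop is named after dihydrouridine, which DUS enzymes make from uridine on both sides of a conserved pair of guanines, and some tRNAs carry a bulky acp3 group on a uridine beside it. Stops without CMC therefore matter as much for reading this arm as stops with it.

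The sequences below show rows 8 to 26 of the tRNAs on which the results turn, from the row names of the deposited tables. The first set shows row 13, with rows 11 to 15 in capitals.

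Glu-CTC-1-1: tggTCTAGtggttaggatt

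Asp-GTC-1-1: tagTATAGtggtgagtatc

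Gln-CTG-1-1: tggTGTAAtggttagcact

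Val-CAC-2-1: tagTGTAGtggttatcacg

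Arg-CCG-3-1: tggCCTAAtggataaggca

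The first 4 match TNTAA or TNTAG and Arg-CCG-3-1 does not. The second set shows the tested D-loop bases in capitals: row 21 of tRNA-Leu, which carries the same letters further along, a pair of tRNA-Trp entries that differ in this window, and 2 tRNAs with frequent stops in BEU buffer.

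Leu-AAG-2-1: tggccgagcggtcTaaggc

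Trp-CCA-1-1: tggcgcaaTggTagcgcgt

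Trp-CCA-4-1: tggcgcaacggTagcgcgt

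Thr-TGT-2-1: tagctcaggggtTagagca

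Asn-GTT-3-1: tggcgcaaTcggtTagcgc

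The stop rate, in percent, is the number of reads that stop at a base divided by the reads that cover it. The median coverage of the 229 tested bases was 929 to 4294 reads in a BEU library and 48 to 348 in a CMC library, so rates with CMC are the less precise. Coverage did not exceed 8015 reads, and stop rates were mostly low where it came near this ceiling. In young CMC library 2, 10 of the 11 tested bases above 7500 reads read 0.0875% to 11.5%, against 7.94% to 33.4% in the other two libraries, and the exception was row 13 of Glu-CTC-1-1. Depending on the library, 6 to 63 of the 229 bases were at the ceiling with BEU and 0 to 11 with CMC. A set of 166 bases stayed below 7500 reads, at the base and 5′ of it, in all 12 libraries and was fitted again on its own.

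A rise with CMC was called where the edgeR quasi-likelihood test gave a Benjamini-Hochberg adjusted p under 0.05, the mean rise over BEU was at least 10 percentage points and all 3 replicates rose. In young cells 26 of the 229 D-arm T bases rose, beside 4.26% of all bases and 18.2% of all T bases tested. In old cells 30 rose, beside 4.79% of all bases and 19.8% of T bases, and 25 rose in both ages. The D-arm share was thus 11.4% in young cells and 13.1% in old ones, below that of T bases at large. Below the ceiling, 20 of 166 rose in young and 25 of 166 in old cells, beside 4.5% and 5.26% of all bases and 17.8% and 19.7% of T bases there. Among the T bases outside rows 13 to 22, 372 of 1960 rose in young cells and 403 in old ones.

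Most rises fell on rows 13 and 21. Row 13 held 17 of the 26 rises in young cells and 18 of the 30 in old cells, and row 21 held 7 and 9. In young cells the mean stop rate of the 25 tested row 13 bases was 1.52 ± 0.203% with BEU and 21.9 ± 2.37% with CMC (SD, n = 3). In old cells it was 1.76 ± 0.457% and 24.1 ± 1.31% (SD, n = 3). Row 16 had a lower mean with CMC than without, with 17.2 ± 0.624% with BEU and 15.2 ± 2.41% with CMC in young cells (SD, n = 3). Row 19 gave 33.5 ± 1.25% and 34.4 ± 3.30%, and row 20 gave 26.02 ± 1.94% and 28.0 ± 2.95%, both in young cells (SD, n = 3). At the row 19 bases with at least 50 reads in every library, the mean BEU rate came to 19.5% (young) and 20.0% (old). CMC was higher there by 6.78 ± 6.47 and 7.61 ± 7.44 points (SD, n = 3), a spread about as large as the rise. At the 39 row 19 bases below the ceiling the rise was not seen. CMC minus BEU averaged -1.31 ± 3.74 points (young) and -1.22 ± 2.34 points (old) at those bases (SD, n = 3). Rows 13 and 22 were the only rows with more than 1 tested base whose mean in BEU buffer was below 5%, with row 22 at 1.87 ± 0.466% in young cells (SD, n = 3).

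**Figure D1:**
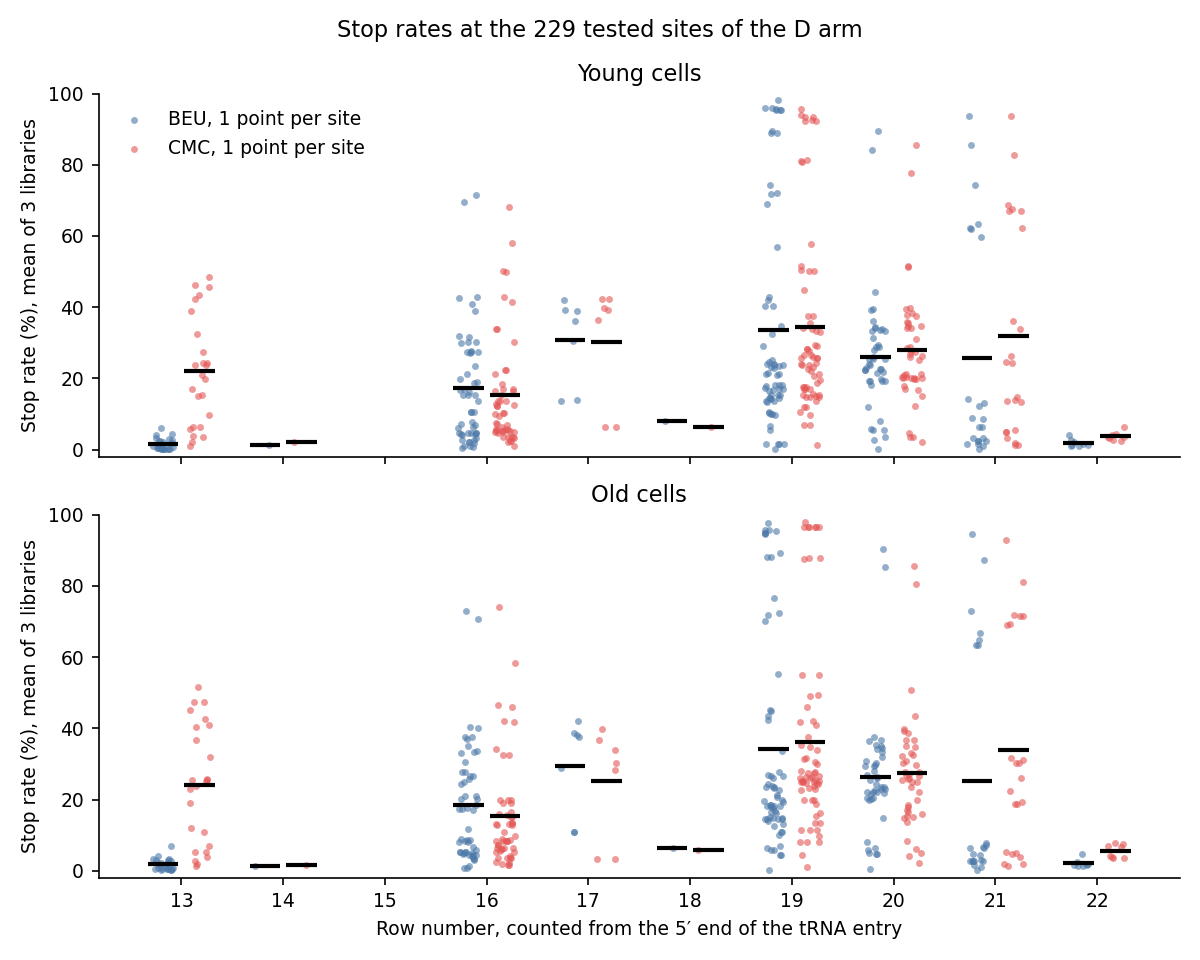
Stop rate (percent, mean of 3 libraries) of each of the 229 tested D-arm T bases against its row number, in young and old cells. Blue points are BEU and red points CMC libraries, and black bars are the means over the bases of a row. Row 13 is low with BEU (mean 1.52% in young cells) and high with CMC (21.9%), while rows 16, 19 and 20 are spread widely in both.

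At row 13 of tRNA-Glu-CTC-1-1, the largest rise, the CMC rate was 49.9%, 47.8% and 48.1% in the young libraries and 52.3%, 52.3% and 50.1% in the old ones. Its BEU rate was 3.04% in young library 2 and 3.36% and 3.85% in old libraries 2 and 3. The other three BEU libraries read at most 0.025% and lay at the ceiling, and 1 CMC library was also above 7500 reads. The rise was 47.6 ± 2.62 points in young cells and 49.2 ± 3.04 in old ones (SD, n = 3), with adjusted p = 0.0198 and 0.0391 by edgeR. CMC and BEU libraries did not overlap in either age. Leaving out young replicate 1 or 3 ended the call in both ages, and leaving out any old replicate, or subtracting 1 from stops and coverage, ended it in old cells.

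Row 13 of tRNA-His-GTG-2-1 was measured below the ceiling in all libraries. Its BEU rate was 6.22%, 6.88% and 5.00% in young and 5.82%, 7.41% and 7.51% in old cells, and its CMC rate was 41.7%, 51.3% and 45.7% in young and 49.5%, 37.1% and 48.5% in old cells. The rise was 40.2 ± 4.49 and 38.1 ± 7.39 points (SD, n = 3), with adjusted p = 3.5e-06 and 6.19e-06 by edgeR. The CMC rates of the 2 ages overlapped.

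The tRNA-Asp and tRNA-Glu-TTC entries followed. Row 13 of Asp-GTC-2-1 had BEU rates of 1.55%, 3.60% and 1.74% and CMC rates of 42.9%, 38.4% and 56.0% in young cells, and the rise in old cells was 41.1 ± 7.12 points (SD, n = 3). Asp-GTC-1-1 rose by 40.9 ± 0.732 points in young cells and 45.2 ± 2.13 in old ones (SD, n = 3), with 1 library at the ceiling. Glu-TTC-2-1 rose by 36.0 ± 9.25 and 36.9 ± 3.08 points, and Glu-TTC-1-1 by 30.3 ± 6.22 and 28.5 ± 6.66 points (SD, n = 3). Adjusted p by edgeR was at most 7.67e-06 for these sites but for Asp-GTC-1-1, which had 0.0313 in young cells and 0.00979 in old ones. That call was lost in young cells without any 1 of young replicates 1, 2 and 3 or old replicate 2, and in old cells without old replicate 2. It was also lost in young cells with 1 subtracted from stops and coverage.

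Among the tRNAs for glycine, Gly-TCC-1-1 had CMC rates of 42.2%, 41.2% and 43.3% in young and 46.0%, 49.9% and 45.9% in old cells at row 13. Its rise was 39.0 ± 1.29 and 44.4 ± 1.95 points (SD, n = 3; edgeR adjusted p = 0.0489 and 0.0149), with 1 BEU library at the ceiling. The call in young cells was lost without any young replicate and without old replicate 2 or 3, with a minimum of 50 reads, with all entries counted, with 1 read subtracted, and under limma, as was that of Asp-GTC-1-1 under limma. Gly-CCC-1-1 rose by 22.5 ± 4.62 and 34.7 ± 1.31 points (SD, n = 3; edgeR adjusted p = 3.18e-07 and 2.02e-07), below the ceiling throughout.

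Rises of middle size came from valine, glutamine and proline tRNAs. Val-CAC-2-1 rose by 25.7 ± 6.52 and 38.3 ± 0.903 points, and Val-AAC-1-1 by 14.2 ± 4.001 and 24.2 ± 7.33 points (SD, n = 3). The 3 Gln-CTG entries had near-equal values, and Gln-CTG-3-1 rose by 24.2 ± 10.8 and 24.7 ± 5.20 points (SD, n = 3). Its CMC rates in young cells ranged from 15.6% to 36.4%, against BEU rates of 0.103% to 0.334%. Pro-TGG-2-1, Pro-CGG-1-1 and Pro-AGG-1-1 rose by 20.5 ± 4.90, 19.3 ± 3.70 and 16.8 ± 4.38 points in young cells (SD, n = 3), each with 2 libraries at the ceiling. The Pro-TGG-2-1 call in young cells was lost without young replicate 1. Glu-TTC-3-1 rose by 14.7 ± 3.94 and 11.1 ± 3.71 points (SD, n = 3), and its call in old cells was lost without old replicate 2.

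**Figure D2:**
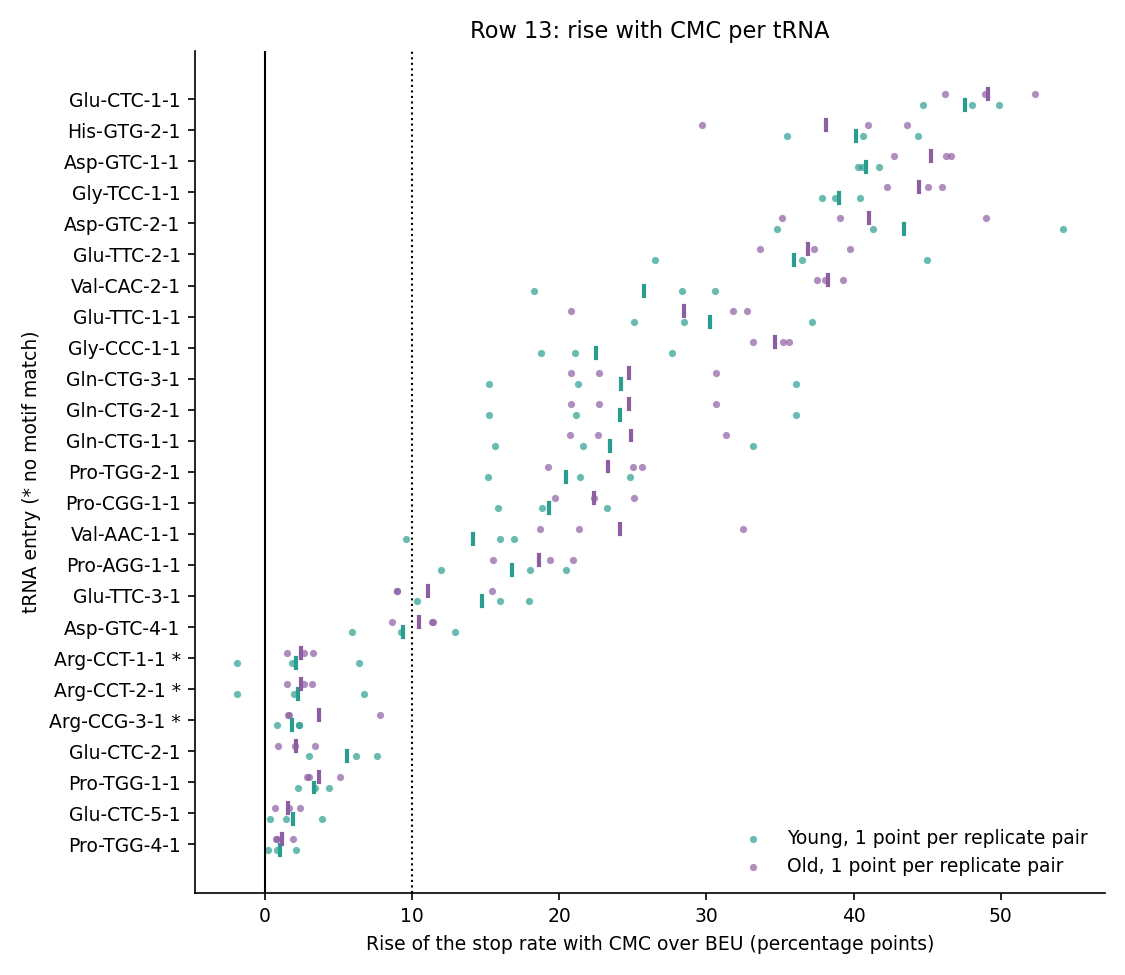
Rise of the stop rate with CMC over BEU (percentage points) at row 13 for each of the 25 tested tRNAs, with 1 point per replicate pair and a bar at the mean of 3, young in green and old in purple. The dotted line marks 10 points and an asterisk an entry without a motif match. Glu-CTC-1-1 is highest at 47.6 points in young cells, and the 3 Arg entries with an asterisk lie at 1.84 to 2.27 points.

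The letters around row 13 differed between the tRNA-Arg bases and the others. TNTAA or TNTAG, read on the tRNA strand with the tested base as the third letter, was found at 22 of the 25 tested row 13 bases, and 2.88% of all 2189 tested T bases have it. The 22 bases with a match rose on average by 22.9 ± 2.53 points in young cells and 25.0 ± 2.05 in old ones (SD, n = 3), and 17 and 18 of them were called. The 3 without a match, in Arg-CCG-3-1, Arg-CCT-1-1 and Arg-CCT-2-1, had a mean difference of 2.08 ± 2.86 and 2.87 ± 1.69 points (SD, n = 3), and none was called. Arg-CCG-3-1 had CMC rates of 1.92%, 4.43% and 5.13% and BEU rates of 1.08%, 2.11% and 2.79% in young cells, which overlap.

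Some entries with the match, and with the same letters at rows 8 to 26 as a tRNA that rose, had low rates. Asp-GTC-4-1 shares this window with Asp-GTC-1-1 and differs from it outside it, by G39A, G41A and C66T (the base of Asp-GTC-1-1, the row, the base of Asp-GTC-4-1). Its rise at row 13 was 9.36 ± 3.51 points in young cells, not called, and 10.5 ± 1.56 in old cells, called (SD, n = 3; edgeR adjusted p = 0.000239). At row 19 its BEU rate was likewise low, 10.5 ± 2.48% against 23.3 ± 7.02% in Asp-GTC-1-1 in young cells (SD, n = 3). Glu-CTC-2-1, which differs from Glu-CTC-1-1 by C27T and C49T, had differences of 5.59 ± 2.37 and 2.14 ± 1.28 points at row 13, below the 10 points asked for (SD, n = 3).

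The proline entries showed the same division. Pro-TGG-1-1, which differs from Pro-TGG-2-1 by C30G and G38C, had a difference of 3.36 ± 1.07 points at row 13 in young cells. The difference in Pro-TGG-4-1 was 1.07 ± 0.959 points (SD, n = 3), and its BEU rates at rows 19 and 21 were 0.0439% to 0.227% and 0.049% to 0.179% over the 6 BEU libraries. Among the row 13 bases with a match, the others that were not called in young cells were in Glu-CTC-5-1, with 1.89 ± 1.79 points, and in Asp-GTC-4-1 and Glu-CTC-2-1 (SD, n = 3). Whether reads of such entries came from other tRNAs with nearly the same sequence was not tested.

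Row 21 divided by the same letters. The search for these letters was extended from row 13 to rows 14 to 22 after the values had been seen. In those rows 9 tested bases matched, all at row 21 of tRNA-Leu: Leu-AAG-1-1, 2-1 and 3-1, Leu-TAG-1-1 and 2-1, Leu-CAG-1-1 and 2-1, and Leu-CAA-2-1 and 4-1. All 9 rose in old cells and 7 of them in young cells, the Leu-CAA bases being the other two. They averaged 8.49 ± 0.374% with BEU and 22.3 ± 3.33% with CMC in young cells, and 5.49 ± 0.447% and 25.4 ± 2.05% in old cells (SD, n = 3). None of the 14 tested row 21 bases without a match was called in either age, and they averaged 36.6 ± 1.46% with BEU and 38.0 ± 3.20% with CMC in young cells (SD, n = 3). None of these 14 is in a tRNA-Leu, so at row 21 the letters cannot be told apart from the kind of tRNA. A mean BEU rate of at least 20% was found at 7 of the 14, and in Asn-GTT-2-1 it left too little room for a call.

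Counted together, bases with a match made up 31 of the 229 tested D-arm T bases but 24 of the 26 that rose in young cells and 27 of the 30 that rose in old cells. Outside rows 13 to 22, 6 of the 32 tested T bases with a match were called in young cells and 4 in old ones, beside 366 and 399 of the 1928 without a match. The 6 in young cells lay at row 35 of Tyr-GTA, the middle of its anticodon, and at row 50 of Arg-ACG.

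Row 21 of tRNA-Leu-AAG-2-1 had BEU rates of 13.3%, 12.2% and 11.5% in young and 6.95%, 6.29% and 7.16% in old cells. Its CMC rates were 32.6%, 34.3% and 41.4% in young and 33.3%, 30.4% and 29.4% in old cells. The rise was 23.8 ± 5.49 and 24.2 ± 2.10 points (SD, n = 3; edgeR adjusted p = 9.4e-05 and 1.15e-05). CMC and BEU did not overlap in either age. The AAG and TAG entries differ at few bases and may share reads, so their values are not independent. Leu-CAG-1-1, with 2 libraries at the ceiling, rose by 10.2 ± 2.39 and 15.98 ± 3.40 points, and Leu-TAG-2-1 by 12.1 ± 8.48 and 18.1 ± 4.53 points (SD, n = 3). The young calls of both Leu-CAG bases were lost without young replicate 2 or 3. The young call of Leu-TAG-2-1 was lost without young replicate 2 or 3 or any old replicate.

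**Figure D3:**
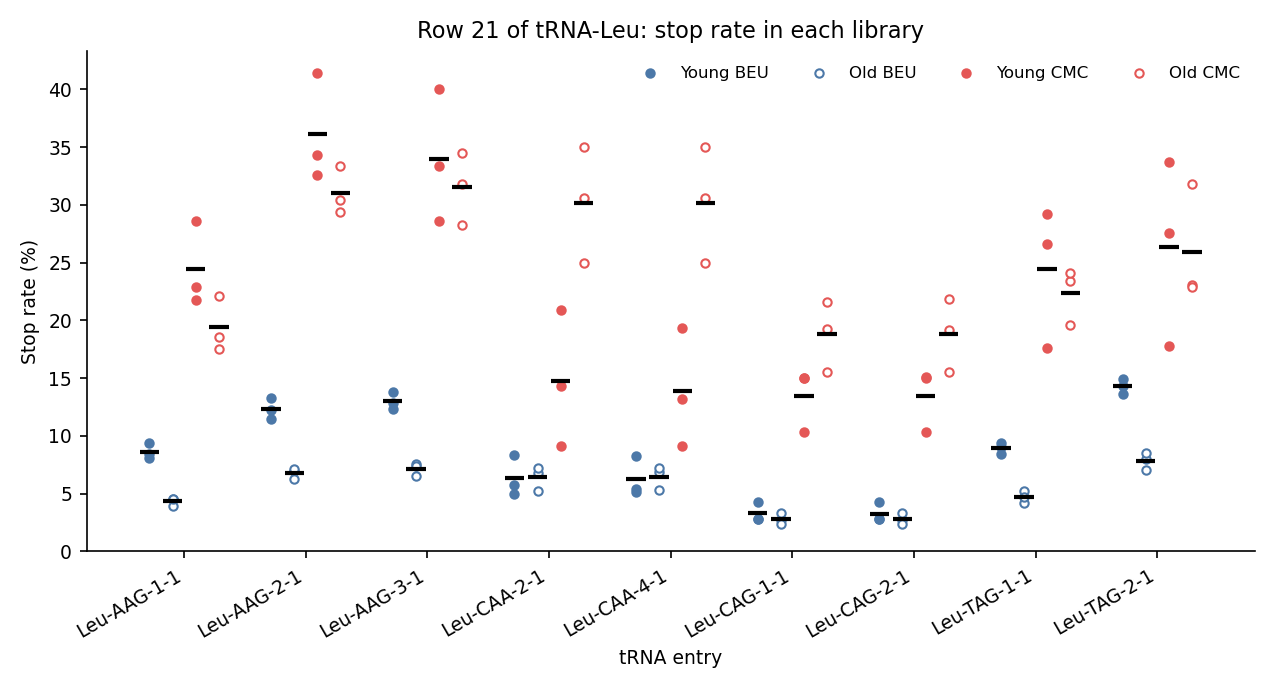
Stop rate (percent) at row 21 of the 9 tested tRNA-Leu entries in each library, BEU in blue and CMC in red, young filled and old open, with a bar at the mean of 3. CMC lies above BEU at each of the 9, and old BEU points lie below young ones in the AAG and TAG entries (6.29% to 7.16% against 11.5% to 13.3% in Leu-AAG-2-1).

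The remaining D-arm rises were few. Gln-CTG-1-1 rose at row 19 by 10.9 ± 4.34 points in young cells and 11.1 ± 0.816 in old ones, and at row 20 by 11.3 ± 4.85 points in young cells (SD, n = 3; edgeR adjusted p = 0.00508, 0.000894 and 0.00336). Without young replicate 1 neither was called in young cells, and without young replicate 3 the row 19 call was lost. Its relatives Gln-CTG-2-1 and Gln-CTG-3-1 had BEU rates at row 19 of 24.0 ± 0.469% and 24.1 ± 0.459%, against 6.71 ± 1.42% in Gln-CTG-1-1 in young cells (SD, n = 3). Val-AAC-1-1 rose at row 16 in old cells, by 14.2 ± 3.83 points (SD, n = 3; edgeR adjusted p = 0.0169), a call lost without any old replicate. Row 20 of Glu-CTC-1-1 was called in old cells with 29.8 ± 1.40 points (SD, n = 3), but 7 of its 12 libraries lay at the ceiling, the call was lost without old replicate 1 or 2, and its BEU rates of 0.05% to 1.39% cannot be read as levels.

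The D-arm T bases also differed from other bases in stops without CMC. A mean BEU rate of at least 5% was found at 71.2% of the D-arm T bases, 11.8% of the other T bases and 16.96% of the A, C and G bases of rows 13 to 22. The median BEU rate was 16.9%, 1.02% and 2.25% in the same order. In rows 16 to 21, T bases averaged 26.1 ± 1.25% in young BEU libraries, against 3.47 ± 0.358% for A, 5.30 ± 0.839% for C and 5.79 ± 0.206% for G (SD, n = 3). These are descriptions over bases, many of which share a tRNA.

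The level varied with place relative to the guanine pair. Counted from the first GG in rows 16 to 22, the first base after the pair averaged 24.8 ± 1.19% over 64 sites in young BEU libraries, the next 30.05 ± 2.33% over 43 and the third 22.8 ± 1.17% over 13 (SD, n = 3). In a run of 3 or more G the pair can also be taken as its last G bases, a rule chosen after the data were seen, which moves 14 sites. The means are then 24.2 ± 1.34% over 70, 35.1 ± 2.27% over 40 and 5.75 ± 0.449% over 15 sites (SD, n = 3), so the level of the third base rests on the rule: row 20 of Thr-TGT-2-1, Thr-TGT-3-1 and His-GTG-3-1, among others, changes place between the rules. The 88 bases before the GG averaged 13.5 ± 0.670%, which includes row 13. The range was wide at each place, with site means from 1.51% to 89.4% at the first base after the first GG. Another 8 sites, in entries where no GG could be read, stand outside these means and averaged 95.6 ± 0.176% (SD, n = 3). All but row 21 of Asn-GTT-2-1 are row 19 of tRNA-Cys-GCA, which in Cys-GCA-1-1 is the first base after the GG. With them the mean of that place would be higher.

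The highest rates without CMC belonged to a few tRNAs. Row 19 of Cys-GCA-21-1 averaged 98.1 ± 0.209% in young and 97.8 ± 0.412% in old BEU libraries, though this entry has no values 5′ of that row. Cys-GCA-1-1, which was read throughout, gave 89.5 ± 0.601% at row 19 in young cells (SD, n = 3). Row 21 of Asn-GTT-2-1 had BEU rates of 93.7%, 93.8% and 93.2% in young and 93.7%, 94.6% and 95.8% in old cells, and this entry has no values at rows 15 to 20. Row 20 of Thr-TGT-2-1 averaged 89.5 ± 1.09%, and row 21 of Ile-AAT-1-1 had 74.0%, 76.0% and 72.6% in young cells (SD, n = 3). None of these was called as a rise with CMC. In Cys-GCA-21-1 and Asn-GTT-2-1 the BEU rate left too little room below full stopping for the rise a call required. The rule could not be met there, and Cys-GCA-1-1 and Thr-TGT-2-1 had hardly more room. Row 21 of Ile-AAT-1-1 had room, and its CMC minus BEU difference was -7.08 ± 7.16 points (young) and -1.35 ± 7.24 points (old) (SD, n = 3). Reads are copied from the 3′ end, so a stop at row 21 also removes reads from the rows before it.

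Before the GG, row 16 of Lys-CTT-13-1 averaged 69.6 ± 2.16% and that of Val-CAC-4-1 71.6 ± 2.91% in young BEU libraries (SD, n = 3). Lys-CTT-13-1 has no values at rows 1 to 10, and Val-CAC-4-1 has none at rows 1 to 7. The other tested Lys-CTT bases at row 16 averaged 7.12% and 11.1% over the BEU libraries of both ages. Entries with the same letters in rows 8 to 26 differed here: row 16 of Val-CAC-2-1 averaged 38.8 ± 1.94% and that of Val-AAC-1-1 18.9 ± 1.17% (SD, n = 3). Val-CAC-4-1 differs from Val-CAC-2-1 by G67A over the rows read in both, and Val-AAC-1-1 by C34A. The best covered row 16 base, in Gly-GCC-2-1, was at the ceiling in 6 libraries, and the best covered row 17 base, in Ala-AGC-4-1, had 38.9%, 41.3% and 37.3% with BEU and 45.2%, 35.9% and 38.0% with CMC in young cells, which overlap. The selenocysteine tRNA SeC-TCA-1-1 held the sole bases of rows 14 and 18, at 1.24 ± 0.0905% and 8.08 ± 1.41% with BEU in young cells (SD, n = 3).

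The tRNA-Trp entries gave a close comparison, chosen after the values were seen. Over all rows read, Trp-CCA-4-1 differs from Trp-CCA-1-1 by T16C alone (the base of Trp-CCA-1-1, its row, the base of Trp-CCA-4-1). At row 19 the BEU rate was 42.1 ± 1.80% in Trp-CCA-1-1 and 21.3 ± 1.94% in Trp-CCA-4-1 in young cells, and 42.4 ± 4.08% and 19.2 ± 3.03% in old cells (SD, n = 3). The other entry without the change, Trp-CCA-5-1, gave 42.7 ± 1.75% in young cells, and the others with it, Trp-CCA-2-1 and Trp-CCA-3-1, gave 21.4 ± 2.02% and 22.9 ± 2.34% (SD, n = 3). With CMC the order was the same, 50.1 ± 5.60% in Trp-CCA-1-1 and 26.5 ± 4.14% in Trp-CCA-4-1 (SD, n = 3). In each of the 4 groups, the 3 values of Trp-CCA-1-1 lay above those of Trp-CCA-4-1. Reads are copied from the 3′ end, so a read that stops at row 19 does not hold row 16, where these entries differ. How such reads were placed between the entries was not given, and what this adds to the rates was not tested.

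**Figure D4:**
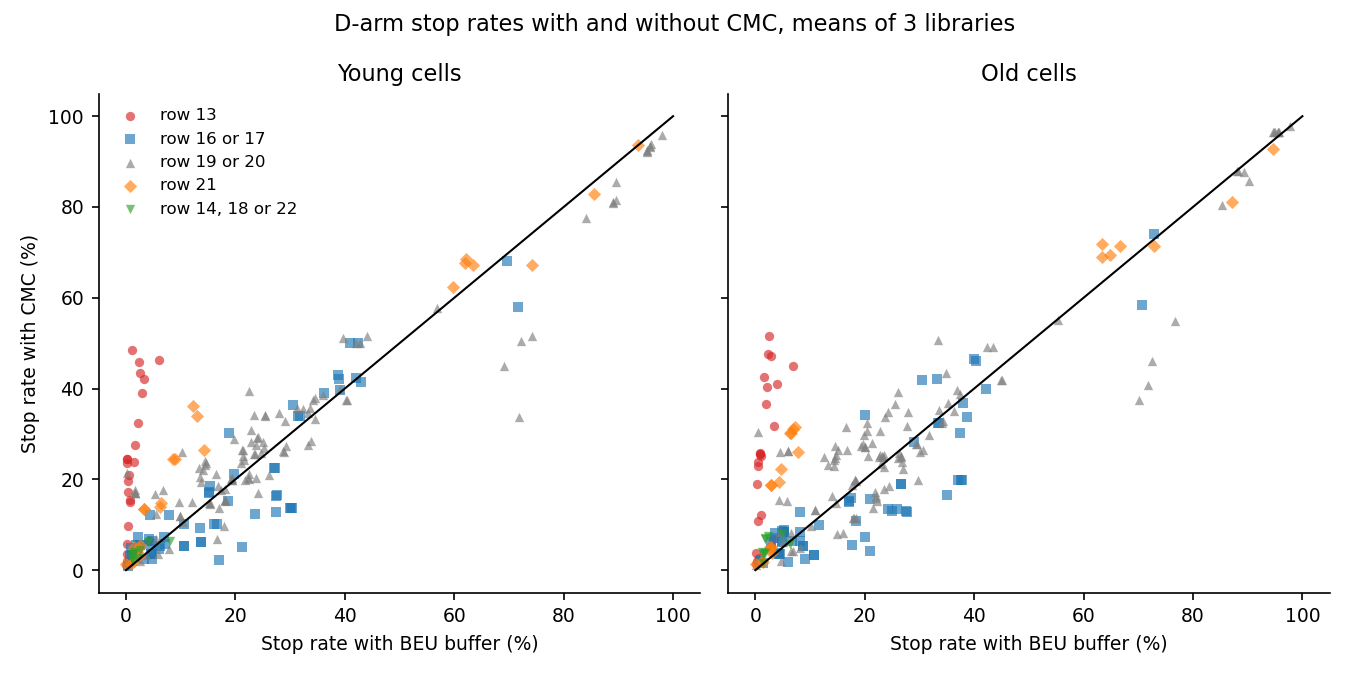
Stop rate with CMC against stop rate with BEU buffer alone (both percent, means of 3 libraries) for the 229 tested D-arm T bases in young and old cells, marked by row number, with the line of equality. Row 13 bases lie above the line at low BEU rates, and the row 19 bases below it at 69.0% to 74.2% BEU in young cells belong to tRNA-Ala.

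Some D-loop bases stopped less often with CMC than without. By a mirrored rule chosen after the data were seen (edgeR adjusted p under 0.05, a fall of at least 10 points, a fall in all 3 replicates), 13 of the 229 fell in young cells, beside 0.268% of all bases and 0.64% of T bases. In old cells 13 fell, beside 0.199% and 0.64%, and 12 fell in both ages. Outside rows 13 to 22, 1 of 1960 T bases fell in each age. Of the 625 A, C and G bases of rows 13 to 22, 4 fell in each age, all at row 17. The D-arm T bases that fell all lay at row 16 (9 in each age) or row 19 (4 in each age). They all had at most 49 reads in their thinnest library, so that with a minimum of 50 reads none was tested.

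Row 19 of Ala-CGC-1-1 fell furthest in young cells, with BEU rates of 70.0%, 73.9% and 71.7% and CMC rates of 31.0%, 30.4% and 40.0%. The fall was 38.1 ± 5.93 points in young cells and 26.4 ± 6.84 in old ones (SD, n = 3; edgeR adjusted p = 9.01e-05 and 0.00127). Ala-CGC-2-1, Ala-TGC-2-1 and Ala-TGC-4-1 also fell at row 19 in both ages, and all 3 calls in young cells were lost without any 1 young replicate. At row 16, Arg-TCT-1-1 went from 20.6%, 21.4% and 21.8% with BEU to 4.41%, 5.36% and 5.41% with CMC in young cells, and Met-CAT-2-1 from 18.8%, 15.8% and 16.3% to 2.31%, 2.69% and 1.41%. The BEU and CMC libraries of these sites did not overlap. The other row 16 falls were in Arg-ACG-1-1 and 3-1 and Ser-GCT-1-1 to 4-1 in both ages, Met-CAT-1-1 in young and Ala-CGC-2-1 in old cells. All Ser-GCT calls were lost in old cells without any 1 old replicate, and in young cells without young replicate 2 or 3. The Arg-ACG calls in young cells were lost without young replicate 1. The Met-CAT-1-1 call was lost without young replicate 1 or 2 or any old replicate. It was also lost with 1 read subtracted, with all entries counted and under limma. The row 16 call of Ala-CGC-2-1 in old cells was lost without old replicate 3. Without young replicate 2, 5 of the falls in young cells were called, and without replicate 1, 7. Without young replicate 3, 8 falls were called, of which 6 were among the 13 and the others were row 17 of Phe-GAA-1-1 and 3-1. In old cells 8 were called without old replicate 2 or 3.

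Age was compared in 3 ways. The rise with CMC was tested between the ages at the 41 D-arm T bases with an average rise of at least 10 points. None differed after adjustment (edgeR, beside 0.0% of the 498 bases of all kinds tested). An unadjusted p under 0.05 was found at 2, beside 23 of the 498. Limma and DESeq2 called 0 as well, and below the ceiling 0 of 23 passed, beside 1.21%. Old cells had the higher rise at 30 of the 41, with a median difference of 2.16 points, and over all 498 at 331, with a median of 1.45 points. At 7 of the 41 all 3 young pairs lay on one side of all 3 old pairs, beside 12.4% of the 498.

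The highest differences were at row 21 of Leu-CAA-4-1, where old exceeded young by 16.1 ± 4.01 points, and Leu-CAA-2-1, by 15.4 ± 4.24 points (SE, n = 3 per age). CMC rates in Leu-CAA-4-1 were 13.2%, 19.3% and 9.09% in young and 30.6%, 35.0% and 25.0% in old cells, which did not overlap. Its thinnest library had 20 reads, so single CMC rates are coarse. At row 13, the difference was 12.6 ± 3.80 points in Val-CAC-2-1, 12.2 ± 2.77 in Gly-CCC-1-1 and 10.0 ± 4.82 in Val-AAC-1-1 (SE, n = 3 per age). The edgeR adjusted p was 0.999 for each of these 5 bases, and 0.464 to 0.857 in the fit below the ceiling. The test acts on odds, and both BEU and CMC odds enter it.

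The CMC rate of Gly-CCC-1-1 at row 13 was 22.4%, 29.1% and 20.2% in young and 37.1%, 37.6% and 35.4% in old cells. Its BEU rate was 1.32%, 1.40% and 1.40% in young and 1.87%, 2.00% and 2.19% in old cells, so that both were higher in old cells without overlap. In Val-CAC-2-1 the CMC rate was 29.4%, 33.1% and 20.0% in young and 39.5%, 41.1% and 40.7% in old cells, while the BEU rates overlapped. The lowest differences were at row 19 of Gly-GCC-1-1 and Glu-CTC-1-1 and row 20 of His-GTG-2-1, each with 3 or more libraries at the ceiling and with a sign that turned when 1 replicate was left out. The others were -3.62 ± 3.13 points at row 13 of Glu-TTC-3-1 and -2.98 ± 4.35 at row 20 of Asp-GTC-2-1 (SE, n = 3 per age).

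**Figure D5:**
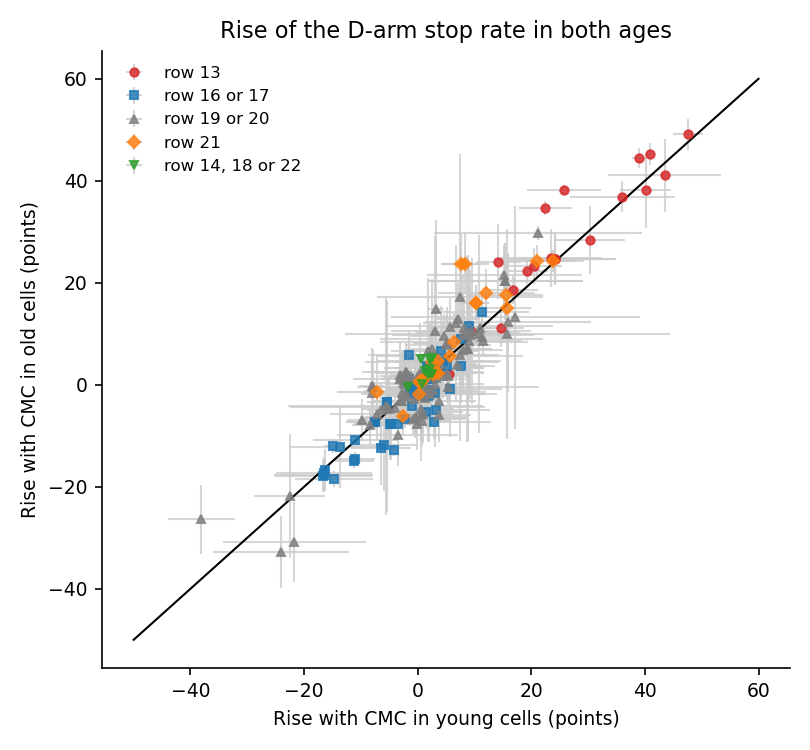
Rise of the stop rate with CMC in old against young cells (percentage points, mean and SD of 3 replicate pairs) for the 229 tested D-arm T bases, marked by row number, with the line of equality. Row 21 of Leu-CAA-4-1 lies furthest above the line among the bases tested for age (7.63 points in young, 23.7 in old cells).

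Stops without CMC were compared between ages at the 163 bases with a mean BEU rate of at least 5%. None passed (edgeR, beside 0.0% of 1190 bases), limma called 0 and DESeq2 called 4. With edgeR 8 had an unadjusted p under 0.05, beside 69 of the 1190. In the fit of bases below the ceiling, 7 of 124 passed, close to the 5.6% of all 893 bases tested there. Of these 7, the 5 that were lower in old cells all lay at row 21 of tRNA-Leu, beside 5.38% lower and 0.224% higher among the 893. Leu-AAG-1-1 fell from 8.62 ± 0.655% to 4.34 ± 0.343%, Leu-AAG-2-1 from 12.3 ± 0.914% to 6.80 ± 0.452% and Leu-TAG-2-1 from 14.3 ± 0.680% to 7.84 ± 0.754% (SD, n = 3; edgeR adjusted p below the ceiling = 0.000185, 0.000664 and 0.0017). Among all 163 these 5 bases had an adjusted p of 0.149 to 0.394.

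The other two were at row 16 and higher in old cells: Asn-GTT-3-1, from 4.69 ± 0.948% to 9.04 ± 1.55%, and Ala-CGC-2-1, from 13.6 ± 1.46% to 20.1 ± 0.753% (SD, n = 3; edgeR adjusted p below the ceiling = 0.00399 and 0.0409). With CMC, the ages were compared at 197 D-arm T bases with a mean rate of at least 5%. None passed (edgeR, beside 0.0% of 2385 bases), and limma and DESeq2 called 0. With edgeR 12 had an unadjusted p under 0.05, beside 94 of the 2385.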

How the data were processed

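Small RNA (under 200 nt, per the labels' protocols) from wild-type young and old hematopoietic stem and progenitor cells was demethylated and treated with or without CMC, giving 12 libraries. The authors deposited, per tRNA base, the coverage as a read count, the number of stop reads as a count, and the stop rate as a percent of coverage. Bowtie2 2.3.5, Bowtie and mm10 appear, without roles, in the submitters' processing notes. The placing of reads that match several tRNAs, and of a stop on a base, was not given in the sources used here.

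Entries with identical values (251 of 404 entries, in 60 groups) were counted once. Bases with at least 20 reads in all 12 libraries were tested with edgeR 4.0.16 (R 4.3.3) in 1 quasi-likelihood fit to pairs of counts (stopped, read through), where each library has a term and each group its log-odds. Benjamini-Hochberg adjustment ran over tested bases of all kinds. Alternatives were limma 3.58.1 on log odds with 0.5 added, DESeq2 1.42.0, other minimums, a replicate block and leaving out replicates. The edgeR and limma fits were also run on simulated stops drawn at the observed coverage. The simulation did not include the low rates seen near the ceiling, so it cannot speak for bases there. The authors deposited the BEU and CMC libraries of a replicate number together, and rises were taken within these pairs. The deviations of same-numbered BEU and CMC libraries from their group means correlated at -0.141 to 0.044. Those of same-numbered young and old libraries correlated at -0.63 to 0.588. The main fit had no replicate block.

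Named sites were the 12 largest rises per age (1 per anticodon and row), the best covered site per row, the 5 highest and lowest age differences and the 8 highest BEU rates. Others were chosen after their values were seen. The members, the lists and the tests were chosen with earlier results of these data known. Coverage below the ceiling limits precision at least by counting error, and reads carry no molecular identifiers.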

Additional observations from a re-analysis of the deposited data

Results flagged for a closer look

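At 7 of the tested D-arm T bases every young pair moved one way and every old pair the other, and the differences between the ages were not tested because the rises averaged under 10 points. Of these, 6 were row 19 of tRNA-Cys-GCA entries with mean BEU rates of 94.6% or more. The rise was higher in old than in young cells by 2.78 points in Cys-GCA-16-1, 3.27 in Cys-GCA-17-1, 3.12 in Cys-GCA-4-1, 4.51 in Cys-GCA-5-1, 4.90 in Cys-GCA-7-1 and 4.49 in Cys-GCA-8-1. In young cells the CMC rates were below the BEU rates (by 2.06 to 3.05 points), and in old cells above them. These entries have nearly the same sequence and may share reads. Of the 10 tested row 19 bases of tRNA-Cys-GCA, 1 stayed below the ceiling in all libraries. Cys-GCA-16-1, 17-1 and 8-1 have no values at rows 1 to 18, and Cys-GCA-4-1, 5-1 and 7-1 have none at rows 15 to 17. Row 19 of Glu-TTC-1-1 went the other way, with a rise of 2.69 points in young and -0.934 in old cells, a difference of -3.62 points. The share of all tested bases with such a split was not counted, so the 7 have nothing to be set against.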

How the results depend on the processing

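The 26 rises in young cells became 9 with a coverage minimum of 50, 42 with a minimum of 1, 86 with all entries counted and 15 when a rise of at least 20 points was asked for. The 30 in old cells became 11, 54 and 106 under the same first 3 changes. A minimum of 10 added row 13 of Val-AAC-2-1, 3-1 and 5-1, Val-CAC-3-1 and 4-1 and Val-TAC-1-1 in young cells. Leaving out a replicate gave 19 to 31 rises in young and 25 to 33 in old cells. The 13 falls in young cells became 0 with a minimum of 50, 25 with a minimum of 1, 20 with all entries, 4 at 20 points and 5 to 12 without 1 replicate. The 13 falls in old cells became 0 with a minimum of 50, 23 with 10, 29 with 1, 21 with all entries, 4 at 20 points and 8 to 14 without 1 replicate. Over the tested bases the rise averaged 3.08 points (young) and 3.39 (old), 1.28 to 4.80 and 1.84 to 4.71 without 1 replicate, 5.84 and 6.51 with all entries, 5.49 and 6.27 with a minimum of 50, and 1.85 and 1.54 below the ceiling. Age differences in BEU stops went from 0 to 7 below the ceiling and 4 with DESeq2. With a replicate block, 22 rises were called in young and 28 in old cells, and 3 falls in young and 8 in old cells. The calls lost under it were row 13 of Glu-CTC-1-1 (both ages), Asp-GTC-1-1 and Gly-TCC-1-1 and row 21 of Leu-TAG-2-1 (young), row 16 of Val-AAC-1-1 (old), and the falls of Ser-GCT and row 19 of Ala-CGC-2-1 (both ages) and of Arg-ACG, Met-CAT-1-1, Ala-TGC-2-1 and Ala-TGC-4-1 (young). Subtracting 1 read also ended the calls of Leu-TAG-2-1 at row 21 and Gln-CTG-1-1 at row 19 in young cells, and of Gln-CTG-1-1 at row 19, Glu-TTC-3-1 and Asp-GTC-4-1 at row 13 and Val-AAC-1-1 at row 16 in old cells. The block changed no count of age differences from 0. Without 1 replicate, the age difference of the rise turned sign at 4 sites. At row 19 of Gly-GCC-1-1 it was 2.60, 2.35 and 1.15 points without young 1, young 3 and old 3 (range -22.2 to 2.60), and at row 20 of His-GTG-2-1 8.29, 0.178 and 4.33 without young 3, old 2 and old 3 (range -16.4 to 8.29). At row 19 of Glu-CTC-1-1 it was 0.425, 0.572 and 3.39 without young 1, young 3 and old 3 (range -12.2 to 3.39), and at row 20 of Asp-GTC-2-1 0.831 without young 1 (range -5.75 to 0.831). Apart from more or fewer sites tested, the cause of these changes was not tested. Rates with CMC rest on a median of 48 to 348 reads, which limits single sites.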
